A study of Mus musculus with 24 samples.

Results

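The 7 genes described here are Ntrk2, Ntrk3, Runx3, Etv1, Pou4f1, Prrxl1 and Avil, which are used as marks of proprioceptive neurons or of sensory neurons in general. They were chosen by name, through the gene symbol that the platform annotation gives each probe. They have 16 of the 45281 probes on the array and are 7 of its 19057 named genes. Ntrk2 has 4 probes, Ntrk3, Etv1 and Pou4f1 have 3 each, and Runx3, Prrxl1 and Avil have 1 each. A gene is represented by its probe of highest mean signal, and its other probes serve as checks. Of the 16 probes, 14 were above background on at least 3 arrays.

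The arrays were 24 single-colour Illumina bead arrays in 8 groups of 3. SMA mice and wild-type (WT) mice, all of strain FVB and at postnatal day 4, were each profiled in the dorsal root ganglion (DRG) and in 3 central tissues, the medial motor column (MMC), the lateral motor column (LMC) and the raphe. SMA stands here for spinal muscular atrophy, in which too little survival motor neuron protein is made and motor neurons fail. Per the design text the replicates are biological. Neither the allele that the SMA mice carry nor how the samples were dissected is given in the sources used here. RNA was amplified from very small amounts before labelling, and the number of arrays limits the precision.

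Proprioceptive neurons are the large sensory neurons of the DRG that report muscle length and tension, and in the spinal cord they synapse directly on motor neurons. Their synapses on motor neurons are known to fail early in mouse models of spinal muscular atrophy. Ntrk3 encodes TrkC, the receptor for neurotrophin-3 on which proprioceptive neurons depend, and Runx3 and Etv1 encode transcription factors that act in the development of these neurons and of their central connections. Ntrk2 encodes TrkB, the receptor for brain-derived neurotrophic factor, which marks some touch neurons in the DRG and is common in the brain, glia included. Pou4f1 (Brn3a), a POU-homeodomain factor, and Prrxl1 (Drg11), a paired-homeodomain factor, act in the differentiation of sensory neurons, and Avil encodes advillin, an actin-binding protein of sensory neurons.

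RefSeq promoter windows on the mouse assembly GRCm38.p6 matched 6 of the 7 genes, with 8 start sites in all. The 250 bases before each start were searched on both strands for TGTGGT, the core bound by RUNX factors, for CCGGAA, a core bound by ETS factors such as the product of Etv1, and for TAATTA, a core bound by homeodomain factors. TGTGGT lay in 5 of the 8 windows, those of 5 of the 6 genes, beside 14% of 32851 windows of the same length over all genes. CCGGAA and TAATTA lay in 0 of the 8, beside 12% and 4.84% of all windows. The matches are described only as letters in a window. The whole Etv1 window is shown because Etv1 carries the differences between genotypes described later, and 30 bases around the RUNX core are shown for the other genes with a match, so that the surrounding bases can be compared. All are written 5′ to 3′ on the strand of the gene, which is the plus strand in each case, with the RUNX core (or its reverse complement) in capitals. No 2 of these matches overlap.
Etv1, chr12:38779832-38780081: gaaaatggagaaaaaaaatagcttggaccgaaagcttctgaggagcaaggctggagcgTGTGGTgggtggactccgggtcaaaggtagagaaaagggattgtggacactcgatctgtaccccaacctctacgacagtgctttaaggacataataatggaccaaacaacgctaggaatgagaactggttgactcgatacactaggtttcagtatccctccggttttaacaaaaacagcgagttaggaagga
Avil, chr10:127000672-127000701: gagctaggagaaTGTGGTtatgatgcaaac
Prrxl1, chr14:32599677-32599706: tgcagggctTGTGGTtgggacccctgagaa
Ntrk2, chr13:58806323-58806352: agcgcattgtctTGTGGTgcgtggaggact
Runx3, chr4:135120503-135120532: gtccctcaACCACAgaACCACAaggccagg
The Avil match begins 25 bases before the start site, and those of Etv1, Ntrk2 and Prrxl1 begin 192, 234 and 241 bases before it. The first Runx3 window holds 2 copies, beginning 134 and 126 bases before the start. The Avil and Prrxl1 windows and the second windows of Runx3 and Etv1 lie wholly inside the annotated gene. Those of Ntrk2 and Pou4f1 lie inside it in part, so that all these start sites are internal ones. The Pou4f1 window, with 78% G and C, holds none of the 3 motifs.

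Levels are log2 signal intensities after background correction and quantile normalization over all arrays. An offset added before the log holds probes without signal near 4.5, so that differences of dim genes are understated. A probe is called above background on an array where its detection p is under 0.05. Smn1, the mouse gene for the survival motor neuron protein, was above background on 0 of 12 SMA arrays and on 12 of 12 WT arrays. Probes above background made up 43.8 to 49.7% of an array in DRG and 33.7 to 47.7% in the central tissues, and the lowest share and a low correlation with its group (r = 0.85 with both of its replicates) belonged to SMA LMC replicate 2. Each tissue was run on a slide of its own, so that tissue and slide cannot be told apart. On every slide the WT arrays held positions A to C and the SMA arrays positions D to F, so that genotype and position cannot be told apart.

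The DRG arrays carried the markers that their label calls for. In WT mice 8 of 8 tested nociceptor genes and 7 of 10 tested Schwann cell and satellite glia markers were higher in DRG than in the mean of the central tissues, while 8 of 8 astrocyte and 7 of 7 oligodendrocyte markers were lower. Over all genes tested 10.1% were higher and 9.27% lower. Of 11 nociceptor genes on the array, 8 were above background on all 3 WT DRG arrays, but 1 in each WT central tissue. Most of them were therefore tested only through DRG, and their count was largely set by that filter. Erbb3 and Pmp2, among the Schwann cell and satellite glia markers, were likewise tested only through DRG. Against WT LMC alone the oligodendrocyte markers went both ways, with a median difference of -0.18. There 1 of 5 tested was higher and 2 were lower in WT DRG, beside 9.98% and 13.3% of all genes. The sodium channel gene Scn11a was at least 90.2-fold higher in WT DRG (adjusted p = 1.19e-12). Of 7 tested motor neuron markers 5 were lower and 2 higher in WT DRG. The cholinergic genes Slc18a3 and Slc5a7 and the motor neuron factor gene Mnx1 were not above background on any DRG array. Chat, another cholinergic gene, was also lower in WT DRG (-1.32, adjusted p = 0.0123). It was above background on every DRG array, though, with averages of 5.41 in WT DRG and 5.58 in SMA DRG. The 2 higher were Isl2 (3.47, adjusted p = 5.04e-10) and Prph (2.12, adjusted p = 0.00288), which sensory neurons also express. In such mixed samples fewer cells of a type and less RNA per cell cannot be told apart.

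The first question was whether each gene marks the DRG. In WT mice, 6 of the 7 genes could be tested against the mean of the 3 central tissues, and 5 of the 6 passed at an adjusted p under 0.05, with 4 higher and 1 lower in DRG. Avil and Prrxl1, above background on no central WT array, entered this test only through DRG, so that their direction was set by the filter. Over all 10700 genes tested, 19.3% passed, 10.1% higher and 9.27% lower. The median difference of all genes was -0.01 on the log2 scale. The 4 genes higher in DRG were Avil, Pou4f1, Etv1 and Prrxl1, and the 1 lower was Ntrk3, so that a gene known for its part in proprioceptive neurons was brighter in every central tissue by its main probe. The same 4 and 1 passed in SMA mice, where 26.2% of 10629 genes passed. Adjusted p-values are from limma, and SE denotes the standard error of a difference on the log2 scale.

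**Figure D1:**
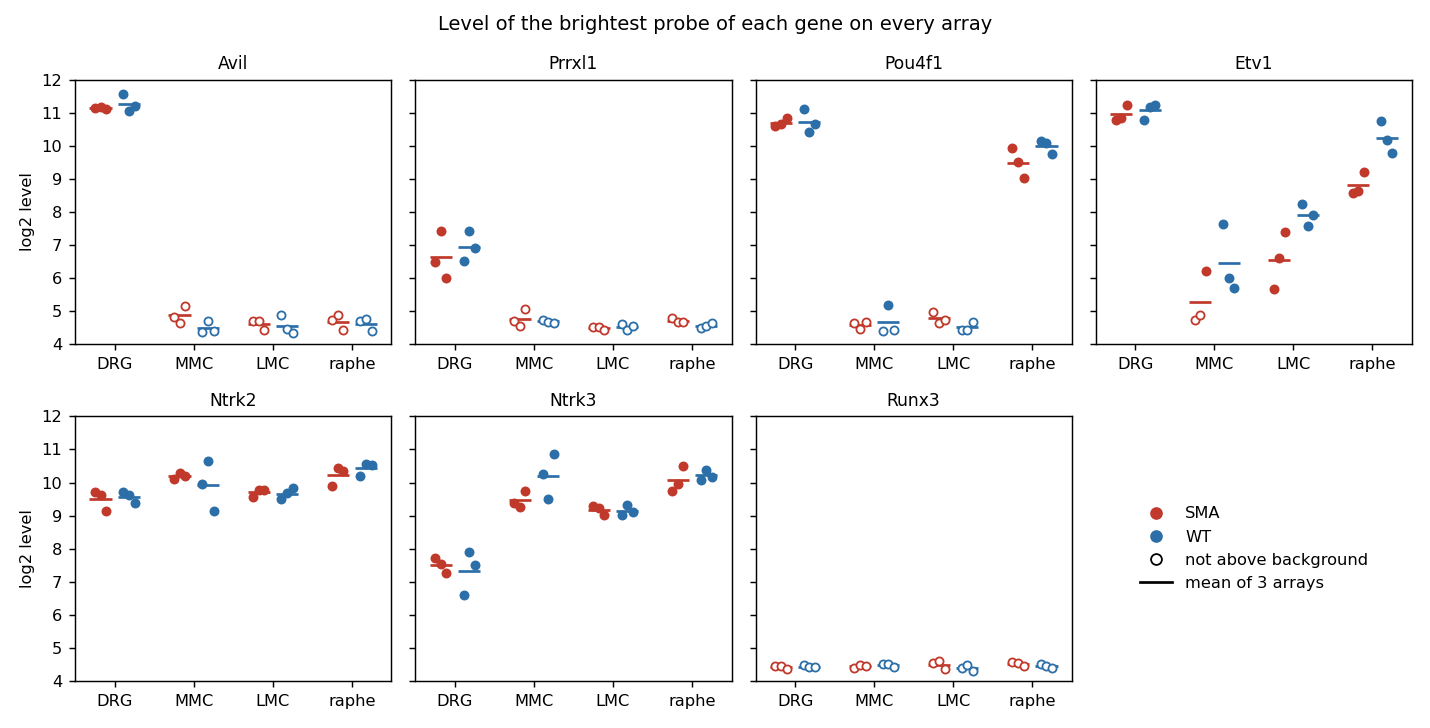
Log2 level of the brightest probe of each gene (vertical axis) on each of the 24 arrays, by tissue (horizontal axis), with SMA left of WT. Open points are not above background and bars are means of 3 arrays. Avil lies above 11 on all 6 DRG arrays and is below background elsewhere, while Pou4f1 and Etv1 are high in both DRG and raphe, Ntrk3 is lowest in DRG and Runx3 lies at background throughout.

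Avil separated the DRG from every central tissue. In WT mice its log2 levels were 11.58, 11.05 and 11.20 in DRG, against 4.38, 4.70 and 4.41 in MMC, 4.87, 4.46 and 4.35 in LMC and 4.70, 4.76 and 4.39 in raphe. All 9 central WT values, and all 9 central SMA values, were not well above background. The level in WT DRG was therefore at least 64.2-fold that of WT MMC (adjusted p = 2.27e-13), at least 65.2-fold that of WT LMC (adjusted p = 2.84e-13) and at least 74.5-fold that of WT raphe (adjusted p = 1.38e-13). In these 3 comparisons 19.9%, 23.2% and 20% of all genes tested passed. The bounds set the mean of the bright group against the lowest level that counts as above background on each array of the dim group. In SMA mice the bound against the mean of the central tissues was 58-fold (adjusted p = 9.3e-15).

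Prrxl1 was also above background on DRG arrays alone. It read 6.52, 7.44 and 6.90 in WT DRG, and 4.42 to 4.74 on the 9 central WT arrays, none of them above background. WT DRG was at least 3.2-fold above WT MMC, at least 3.25-fold above WT LMC and at least 3.71-fold above WT raphe, with adjusted p-values of 2.32e-06, 9.14e-07 and 9.69e-07. In SMA mice it was at least 2.54-fold higher in DRG than in the mean of the central tissues (adjusted p = 5.57e-07).

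Pou4f1 was bright in 2 tissues. Its main probe gave 11.13, 10.41 and 10.65 in WT DRG, and 10.14, 10.07 and 9.75 in WT raphe. WT MMC had 4.41, 5.19 and 4.43, with 1 of 3 arrays above background, and WT LMC had 4.44, 4.43 and 4.67, with none. WT DRG exceeded WT MMC by 6.05 (SE 0.32, adjusted p = 2.35e-12), a fitted value against a group with 1 of 3 arrays above background, and was at least 44.6-fold above WT LMC (adjusted p = 1.74e-12). Pou4f1 entered both of these comparisons only through DRG, so that its direction in them was set by the filter.

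WT DRG lay 0.75 above WT raphe by this probe (SE 0.32, 95% interval 0.09 to 1.41, adjusted p = 0.108). The 3 values of WT DRG were all above the 3 of WT raphe, as was so in this direction for 22.9% of 10153 genes. Raphe itself exceeded MMC in WT mice by a fitted 5.31 (adjusted p = 3.65e-11, where 19.1% of genes passed), with the same single MMC array above background. Pou4f1 entered that comparison only through raphe. A second Pou4f1 probe had the opposite order, with 7.35, 6.90 and 7.45 in WT DRG and 8.61, 8.18 and 8.86 in WT raphe. Its difference, DRG minus raphe, was -1.32 (SE 0.36, adjusted p = 0.0118 over 16268 probes), and the mean of the detected probes gave -0.28. With the deposited normalized values the main probe was higher in DRG by 0.63 at an adjusted p of 0.00585, and it also passed with an offset of 50, with no trend and with only the arrays compared. The order of DRG and raphe for Pou4f1 was therefore not settled by these probes. The third probe was above background on 1 of 24 arrays, in SMA raphe.

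Etv1 followed a graded order, highest in DRG, then raphe, LMC and MMC. The values were 10.79, 11.19 and 11.23 in WT DRG, 10.75, 10.16 and 9.80 in WT raphe, 8.25, 7.57 and 7.90 in WT LMC, and 7.64, 6.02 and 5.69 in WT MMC. Every WT DRG value was above every central WT value, by the narrowest margin over raphe, and 6.8% of all genes had this order. Unlike Avil and Prrxl1, Etv1 was above background on all 9 central WT arrays.

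WT DRG exceeded WT MMC by 4.62 (SE 0.47, adjusted p = 1.24e-07) and WT LMC by 3.16 (SE 0.47, adjusted p = 2.57e-05). Its difference from WT raphe, 0.83 (SE 0.47, 95% interval -0.15 to 1.81), had an adjusted p of 0.242 over all 24 arrays, but passed with the deposited normalized values (0.71, adjusted p = 0.0172), with array weights and with only the arrays compared. The other Etv1 probes, which were much dimmer, put DRG below raphe by 0.11 and 0.07 in WT mice (adjusted p = 0.891 and 0.928), so that the main probe alone held the order of these 2 tissues. WT raphe exceeded WT LMC by 2.33 (adjusted p = 0.000888, where 30.4% of genes passed), and LMC lay 1.46 above MMC without passing (adjusted p = 0.085, where 3.41% passed). In SMA mice, Etv1 was 4.06 higher in DRG than in the mean of the central tissues (SE 0.39, adjusted p = 2.26e-08).

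**Figure D2:**
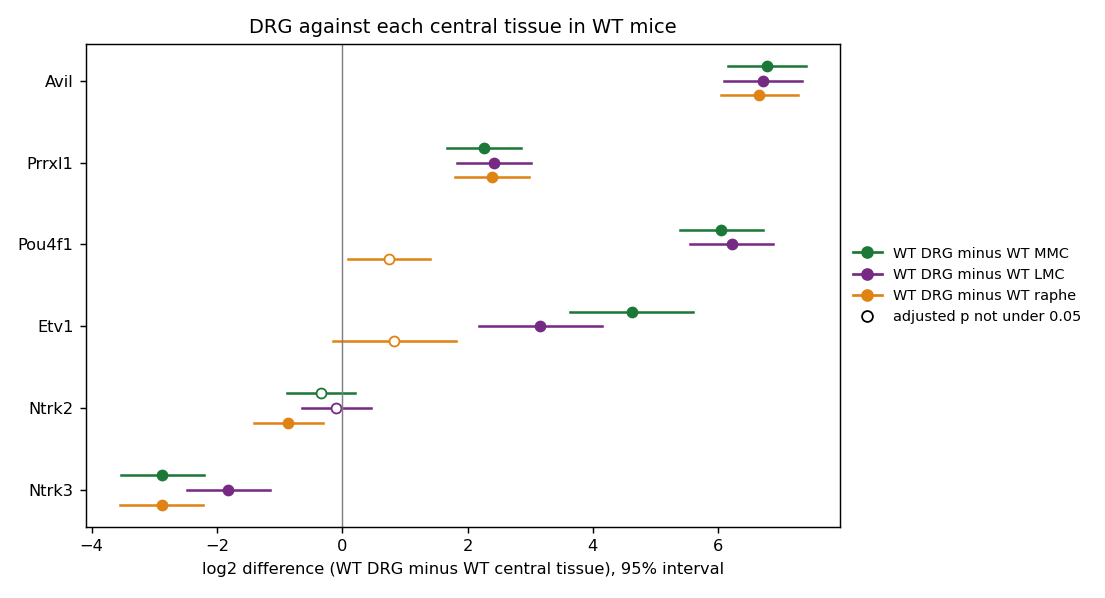
Log2 difference of WT DRG minus each WT central tissue (horizontal axis) for the 6 genes tested, with 95% intervals from the model over 24 arrays. Filled points passed at an adjusted p under 0.05. Avil and Prrxl1 lie right of 0 against every central tissue, Pou4f1 and Etv1 against MMC and LMC, and Ntrk3 lies left of 0 against all 3. Where a central tissue was below background the point is a fitted value and understates the difference.

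Runx3 gave no usable signal. Its single probe was above background on 0 of 24 arrays, with levels of 4.36 to 4.46 in SMA DRG and 4.41 to 4.48 in WT DRG, and 4.29 to 4.59 on the central arrays of both genotypes. It was tested in no comparison, and no fold is given.

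Ntrk2 was bright in all tissues, with the highest mean in raphe in WT mice. The main probe, designed on NM_008745, gave in WT mice 9.71, 9.61 and 9.39 in DRG, 9.96, 10.64 and 9.13 in MMC, 9.49, 9.69 and 9.82 in LMC and 10.21, 10.57 and 10.53 in raphe. DRG overlapped MMC and LMC and lay below raphe on every array, which in this direction was so for 19.6% of all genes.

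Against the mean of the central tissues the difference was -0.43 (SE 0.22, 95% interval -0.88 to 0.01, adjusted p = 0.182). Against raphe alone the difference was -0.86 and passed (SE 0.26, adjusted p = 0.0221). That call was lost with median scaling (-0.63, adjusted p = 0.146), with the mean of the detected probes (-0.71, adjusted p = 0.147), and without WT DRG replicate 2 (-0.88) or 3 (-0.77) or WT raphe replicate 2 (-0.80) or 3 (-0.82). Without WT MMC replicate 3 the difference from the mean of the central tissues passed instead (-0.56, adjusted p = 0.0235), as it did with array weights (-0.57). WT MMC decided its own comparison too, where the difference of -0.34 was -0.73 without WT MMC replicate 3 and 0.02 without WT MMC replicate 2. Of the neighbours in the order raphe, MMC, LMC and DRG, none passed in WT mice (adjusted p = 0.172, 0.628 and 0.832). WT raphe exceeded WT LMC, which is not its neighbour, by 0.77 and passed (SE 0.26, adjusted p = 0.0315, where 30.4% of genes passed). In SMA mice DRG differed from the mean of the central tissues by -0.55 (SE 0.22, adjusted p = 0.0614), which passed with median scaling (-0.85), with array weights, with only the arrays compared and without SMA raphe replicate 1.

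The 2 Ntrk2 probes designed on NM_001025074 gave lower means in WT DRG than in the mean of the WT central tissues, without passing. They differed from the mean of the WT central tissues by -0.91 (SE 0.39, adjusted p = 0.118) and -0.51 (SE 0.55, adjusted p = 0.603). Against WT raphe alone the first of them passed (-1.40, adjusted p = 0.0439) and the second did not (-0.82, adjusted p = 0.453). In SMA mice the second averaged 7.18 in DRG, against 6.87 in MMC, 6.95 in LMC and 8.27 in raphe. The fourth probe was above background on 5 of 24 arrays and was not tested.

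The Ntrk3 probes gave different orders of the tissues. The main probe, designed on NM_182809, gave in WT mice 6.59, 7.89 and 7.52 in DRG, 10.26, 9.49 and 10.86 in MMC, 9.03, 9.31 and 9.12 in LMC and 10.09, 10.39 and 10.17 in raphe. Every WT DRG value was below every central WT value, which was so for 5.61% of all genes. The differences of WT DRG were -2.87 from MMC (SE 0.32, adjusted p = 3.76e-07), -1.82 from LMC (adjusted p = 0.00016) and -2.88 from raphe (adjusted p = 3.29e-07).

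A dimmer probe designed on the same transcript was below background on all 6 DRG arrays and above it on 13 of 18 central arrays. By this probe WT DRG was at least 1.59-fold lower than the mean of the WT central tissues, without passing (adjusted p = 0.0545). The probe designed on NM_008746 gave another order, with WT values of 7.98, 7.82 and 7.82 in DRG, 6.25, 7.08 and 7.84 in MMC, 8.75, 7.71 and 7.85 in LMC and 7.09, 7.19 and 6.17 in raphe. By this probe WT DRG lay 0.55 above the mean of the central tissues (SE 0.36, adjusted p = 0.35) and 1.06 above raphe (SE 0.44, adjusted p = 0.108). As background, Ntrk2 and Ntrk3 each give rise to a receptor with a kinase domain and to truncated receptors without one, which in the nervous system are common in glia. Which of these forms each probe reads was not analysed here.

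Markers of glia also differed between the tissues. The summed linear level of the 8 astrocyte markers on the array was 965 to 2777 in WT DRG, against 12955 to 17079 in WT MMC, 9611 to 10387 in WT LMC and 12598 to 15801 in WT raphe. In WT DRG 5 of the 8 were above background on all 3 arrays, and Gfap, the intermediate filament gene of astrocytes, was on none. In SMA mice the sum was 1207 to 2101 in DRG, against 14667 to 17752 in MMC, 9002 to 10616 in LMC and 11698 to 12201 in raphe.

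For the 8 oligodendrocyte markers the sum was 1329 to 1848 in WT DRG, against 9560 to 12727 in WT MMC, 3947 to 4702 in WT LMC and 15436 to 19075 in WT raphe. In SMA mice it was 1812 to 1911 in DRG, against 8035 to 12030 in MMC, 3503 to 6642 in LMC and 13178 to 18039 in raphe, and Mog and Olig2 were below background on all DRG arrays of both genotypes. Against WT LMC, 7 of 7 tested astrocyte markers were lower in WT DRG (median -3.12). Over all genes 9.98% were higher and 13.3% lower in that comparison. Ntrk2 differed there by -0.09 by its main probe (adjusted p = 0.832). Its 2 probes designed on NM_001025074 differed by -0.95 and -0.70 (adjusted p = 0.163 and 0.488). Of 5 tested oligodendrocyte markers 1 was higher and 2 were lower there, with a median of -0.18. Pdgfra, 1 of these markers, averaged 7.13 in WT DRG and 10.21 in WT LMC. In the same comparison Ntrk3 differed by -1.82 by its main probe and by -0.23 by the NM_008746 probe (adjusted p = 0.757). Of the Schwann cell and satellite glia markers 7 of 10 were higher in WT DRG than in WT LMC. The part of these cells in the Ntrk2 and Ntrk3 differences was not tested.

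**Figure D3:**
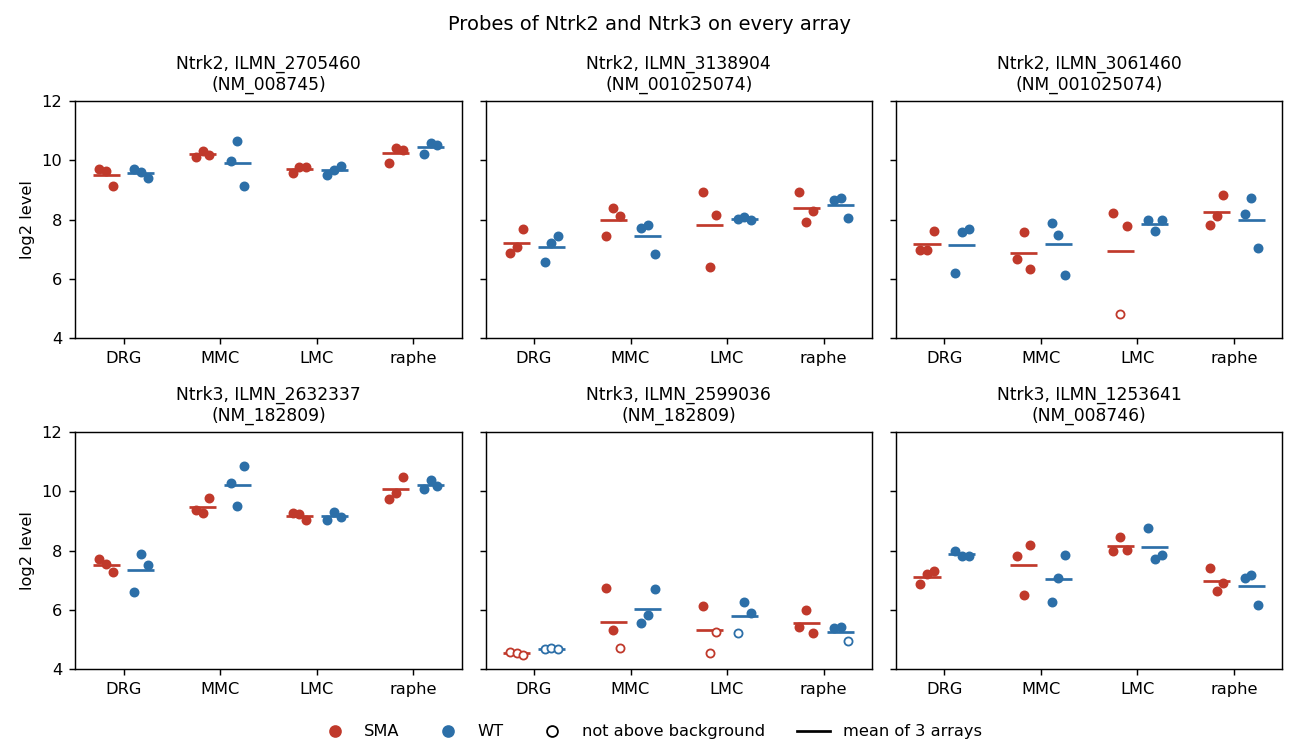
Log2 level (vertical axis) of 3 probes each of Ntrk2 (top) and Ntrk3 (bottom) on each of the 24 arrays, by tissue, with SMA left of WT. Each panel names the probe and the transcript it was designed on, open points are not above background and bars are means of 3 arrays. The main Ntrk3 probe is lowest in DRG on every array, and the NM_008746 probe is not.

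The genes whose levels over the 24 arrays were most like each member also differed between members. Pearson's r is given as a description, over points that share their tissue, slide and normalization. Avil was most like Myo1a (r = 0.995), Tmem45b (r = 0.995) and Scn10a (r = 0.994), the last a sodium channel gene of nociceptors, and Prrxl1 was most like Alox5 (r = 0.963), A3galt2 (r = 0.961) and Scn10a (r = 0.959). Pou4f1 was most like Gnao1 (r = 0.947), which encodes a G protein subunit common in neurons, and then Synpr (r = 0.939) and Pphln1 (r = 0.936). Etv1 was most like Ptprf (r = 0.90), Prkca (r = 0.895) and the neuropeptide gene Gal (r = 0.893).

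The receptor genes had other nearest genes. Ntrk3 was most like Cldn5 (r = 0.931), a tight junction gene of endothelium, Pdgfra (r = 0.922), which marks oligodendrocyte precursors, and Gpm6a (r = 0.920). Ntrk2 had weaker likenesses, to Tcf4 (r = 0.843), Ednrb (r = 0.839) and Enpp6 (r = 0.816). Among the members themselves, Avil and Prrxl1 had r = 0.956, Etv1 and Pou4f1 r = 0.891, and Avil and Ntrk3 r = -0.895.

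Further genes of the same pathways were taken from lists and compared between WT DRG and the mean of the WT central tissues. Of 11 tested other proprioceptor genes, 4 were higher in DRG and 3 lower, with a median difference of 0.10. Piezo2, the mechanically gated channel of touch and proprioceptive neurons, was higher by 4.63 (SE 0.30, adjusted p = 3.64e-11), with 12.04 ± 0.06 in WT DRG (SD, n = 3). Pvalb, the calcium buffer parvalbumin of proprioceptive neurons and of some central interneurons, was higher by 4.39 (SE 0.43, adjusted p = 3.84e-08). Slc17a7, the vesicular glutamate transporter VGLUT1 found at proprioceptive synapses, was at least 1.61-fold higher (adjusted p = 0.00104). Slc17a7 was above background on no central WT array and was tested only through DRG, so that its direction was set by the filter. Nxph1 and Esrrg were lower in DRG, with differences of -4.20 and -2.65 (adjusted p = 1.18e-08 and 1.14e-08).

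Of 9 tested neurotrophin ligands, receptors and adaptors, 4 were higher in DRG and 1 lower, with a median of -0.08. Shc1, an adaptor of receptor tyrosine kinases, was higher by 2.80 (adjusted p = 6.31e-08). Ngfr, the p75 neurotrophin receptor, was higher by 1.82 (adjusted p = 3.61e-06), Bdnf, the ligand of TrkB, was at least 3.37-fold higher (adjusted p = 0.000537). The adaptor gene Frs3 was lower, with a difference of -1.43 (adjusted p = 0.000552).

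Of 6 tested other general sensory neuron genes, 5 were higher and 0 lower in DRG, with a median difference of 1.11. Of these 5, Six4 was above background on no central WT array and was tested only through DRG. Taken tissue by tissue, 2 of the 6 were higher in WT DRG than in MMC, 1 of 6 than in LMC and 4 of 6 than in raphe. Over all genes 10.4%, 9.98% and 11.2% were higher in these comparisons. Much of the count of 5 therefore came from raphe. Isl1, a homeodomain factor of sensory and motor neurons, was at least 6.6-fold higher than the mean (adjusted p = 1.61e-09), with averages of 10.19 in WT DRG, 7.65 in WT MMC, 9.71 in WT LMC and 4.66 in WT raphe, where it was below background. Prph, an intermediate filament gene of peripheral and motor neurons, averaged 12.21 in WT DRG, 11.50 in WT MMC, 11.63 in WT LMC and 7.15 in WT raphe. Of 6 tested touch neuron genes 3 were higher and 0 lower, with a median of 0.52, among them Shox2, which was at least 3.13-fold higher (adjusted p = 0.000577). Th, another of the 3, was above background on no central WT array and was tested only through DRG. Against MMC and against LMC, 2 of 5 were higher and 1 lower, with medians of -0.45 and -0.19. Over all genes 10.4% and 9.98% were higher and 9.56% and 13.3% lower there. The receptor gene Ret, counted as higher than the mean, averaged 10.41 in WT DRG, against 11.58 in WT MMC, 11.75 in WT LMC and 6.53 in WT raphe.

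The second question was whether the 7 genes differ between SMA and WT mice in DRG. In DRG, 0 of the 6 tested genes passed, and each had an adjusted p of 1. Over all 9927 genes tested 0.0101% passed, which was Smn1 alone, and 142 had an unadjusted p under 0.05. For each of the 6 genes the values of SMA and WT DRG overlapped by the main probe, whereas 8.64% of all genes tested had groups that did not overlap. A missed threshold does not show that levels were equal, so each difference is given with its 95% interval.

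Avil gave 11.14, 11.19 and 11.13 in SMA DRG, against 11.58, 11.05 and 11.20 in WT DRG. The SMA values lay within the WT range, and the difference was -0.13 (SE 0.30, interval -0.74 to 0.49). Pou4f1 gave 10.59, 10.65 and 10.85 in SMA DRG, against 11.13, 10.41 and 10.65 in WT DRG, a difference of -0.03 (SE 0.32, interval -0.69 to 0.63). The second Pou4f1 probe averaged 6.76 ± 0.68 in SMA DRG and 7.23 ± 0.29 in WT DRG (SD, n = 3 each). Prrxl1 had the widest spread, with 6.50, 7.42 and 6.0 in SMA DRG, against 6.52, 7.44 and 6.90 in WT DRG. Its difference was -0.31 (SE 0.28, interval -0.90 to 0.28).

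Etv1 gave 10.78, 10.83 and 11.23 in SMA DRG, against 10.79, 11.19 and 11.23 in WT DRG. The groups nearly coincided (-0.12, SE 0.47, interval -1.10 to 0.86), and the other Etv1 probes differed by -0.07 and -0.12. Ntrk2 gave 9.71, 9.63 and 9.13 in SMA DRG, against 9.71, 9.61 and 9.39 in WT DRG, a difference of -0.08 (SE 0.26, interval -0.63 to 0.47). For Ntrk2, Avil and Pou4f1 the intervals of the main probes lie within 1 log2 unit of 0 in both directions, while that of Etv1 does not. Those of Prrxl1 and of the main Ntrk3 probe also do on this scale, but for the dim Prrxl1 the offset shrinks differences, so that a halving of its level is not excluded.

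For Ntrk3 the probes again pointed different ways. The main probe gave 7.72, 7.55 and 7.27 in SMA DRG, against 6.59, 7.89 and 7.52 in WT DRG, a difference of 0.18 (SE 0.32, interval -0.48 to 0.84). WT DRG replicate 1 held the lowest of these 6 values, and without it the difference was -0.19. The probe designed on NM_008746 gave 6.86, 7.20 and 7.32 in SMA DRG, against 7.98, 7.82 and 7.82 in WT DRG. All 3 SMA values of that probe were below all 3 WT values, as was so in this direction for 5% of all genes by their main probe. The difference of -0.75 (SE 0.44, unadjusted p = 0.105) had an adjusted p of 1 over 16023 probes. This probe was singled out after its values were seen.

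The further sensory genes showed 0 calls in SMA against WT DRG in any list: 0 of 10 other proprioceptor genes, 0 of 9 neurotrophin genes, 0 of 6 other general sensory neuron genes, 0 of 5 touch neuron genes and 0 of 8 nociceptor genes passed. The median differences of these lists were 0.05, -0.09, -0.17, -0.14 and -0.08, beside -0.03 over all genes. The proprioceptor gene of smallest p was Slc17a7, with 5.23 ± 0.24 in SMA DRG and 5.88 ± 0.85 in WT DRG (SD, n = 3 each), a difference of -0.65 (unadjusted p = 0.0364, adjusted p = 1). Its SMA level lay near background, as the lowest level counted as above it was 4.95 to 5.17 on the DRG arrays. Bdnf differed by -0.45 and Shc1 by -0.35 (adjusted p = 1 for both). The summed Schwann cell and satellite glia markers, 6596 to 7122 in SMA DRG and 6146 to 7891 in WT DRG, overlapped between genotypes. Among them Pmp2, a myelin protein gene, averaged 7.62 ± 0.30 in SMA DRG and 6.39 ± 0.95 in WT DRG (SD, n = 3 each), a difference of 1.23 (unadjusted p = 0.00127, adjusted p = 1).

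**Figure D4:**
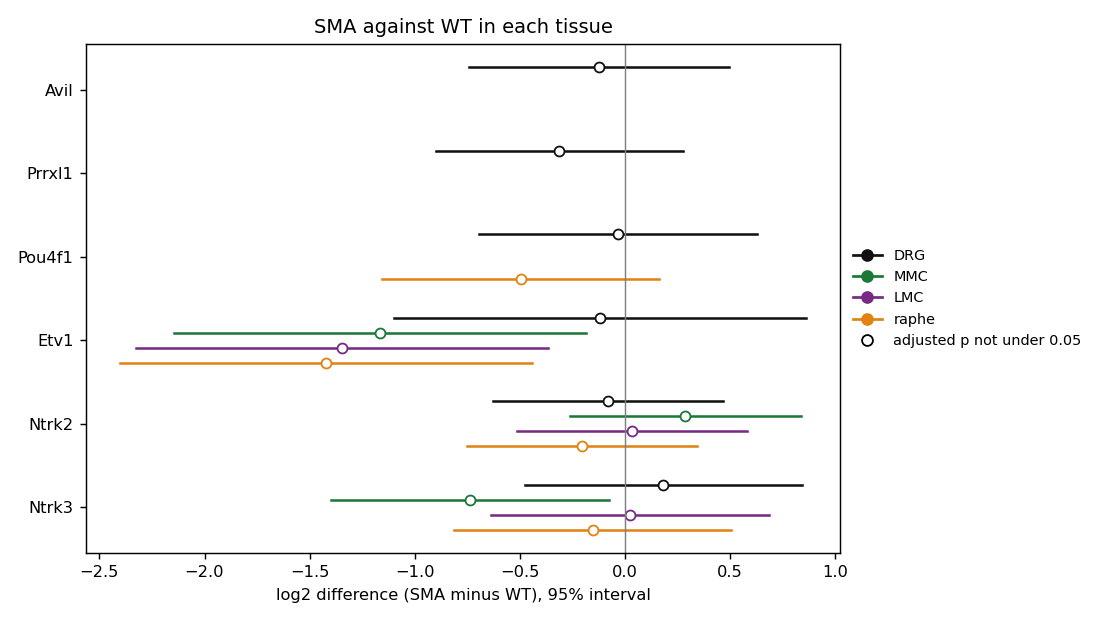
Log2 difference of SMA minus WT (horizontal axis) for the 6 genes in each tissue in which the gene was tested, with 95% intervals from the model over 24 arrays. All points are open because none had an adjusted p under 0.05. In DRG every interval includes 0, and Etv1 lies left of 0 in MMC, LMC and raphe.

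Outside the DRG the gene that differed most between genotypes was Etv1. In raphe it gave 8.58, 8.65 and 9.22 in SMA mice, against 10.75, 10.16 and 9.80 in WT mice. In LMC it gave 5.67, 6.60 and 7.41 in SMA mice, against 8.25, 7.57 and 7.90 in WT mice, and in MMC 4.74, 4.88 and 6.22 in SMA mice, against 7.64, 6.02 and 5.69 in WT mice. The groups did not overlap in raphe and LMC, as was so with lower SMA values for 7.93% and 4.49% of all genes there, and they overlapped in MMC, where 2 of the 3 SMA arrays were not above background.

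The differences of SMA from WT were -1.42 in raphe (SE 0.47, unadjusted p = 0.00643, adjusted p = 0.372), -1.35 in LMC (SE 0.47, unadjusted p = 0.00922, adjusted p = 0.709) and -1.17 in MMC (SE 0.47, unadjusted p = 0.0217, adjusted p = 0.246). None passed, beside 0.244%, 0.022% and 1.3% of all genes in these tissues. With the deposited normalized values the raphe difference was -1.05 and passed (adjusted p = 0.0199). Leaving out 1 array at a time moved the MMC difference between -1.64 and -0.57 and the LMC difference between -1.77 and -0.90. The other Etv1 probes differed in raphe by -1.03 and -1.07 (adjusted p = 0.517 and 0.351). SMA LMC replicate 2, the array of low signal, held the middle of the SMA LMC values. The difference between the genotype effect in DRG and its mean in the central tissues was 1.19 for Etv1 (SE 0.55, unadjusted p = 0.0399, adjusted p = 1). 0% of 11199 genes passed that test, with 314 at an unadjusted p under 0.05. An effect of genotype particular to the central tissues was therefore not shown. The mean of the 3 central differences of Etv1, tested after they were seen, was -1.31 (SE 0.27, adjusted p = 0.0494, where 0.161% of 10540 genes passed), a call that was lost in 20 of 27 alternatives. Chosen from the same values, this test is no independent evidence of a difference.

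**Figure D5:**
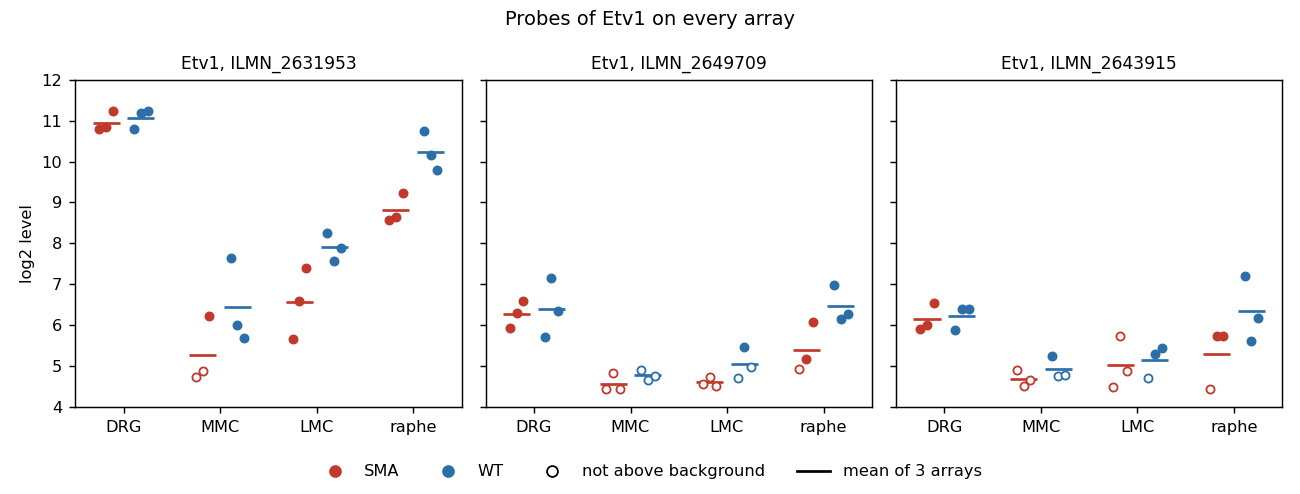
Log2 level (vertical axis) of the 3 Etv1 probes on each of the 24 arrays, by tissue, with SMA left of WT. Open points are not above background and bars are means of 3 arrays. The DRG values of the 2 genotypes overlap for each probe, and in raphe the main probe lies between 8.58 and 9.22 in SMA mice and between 9.80 and 10.75 in WT mice.

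In raphe the summed serotonergic markers did not overlap between the genotypes either, at 8533 to 11182 in SMA mice and 4994 to 7370 in WT mice. Of the 6 such markers on the array 4 were above background on all raphe arrays of either genotype and Gata3 was on none, and 0 of the 4 tested passed. The summed astrocyte markers of SMA raphe lay below those of WT raphe without overlap, in the ranges given earlier. Of single genes tested in raphe, 6.61% had higher and 7.93% lower SMA values without overlap, so that such an order was not rare. The part of the serotonergic and astrocyte markers in the Etv1 values was not tested.

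The other genes tested in the central tissues showed 0 calls between genotypes. By the main probes the largest difference among them was that of Ntrk3 in MMC, with 9.38, 9.27 and 9.76 in SMA mice, against 10.26, 9.49 and 10.86 in WT mice (-0.74, SE 0.32, unadjusted p = 0.03, adjusted p = 0.277). The NM_008746 probe of Ntrk3 lay 0.45 higher in SMA MMC (adjusted p = 0.691). Pou4f1 in raphe gave 9.92, 9.51 and 9.03 in SMA mice, against 10.14, 10.07 and 9.75 in WT mice (-0.50, SE 0.32, adjusted p = 0.846), and its second probe differed by -0.89 (adjusted p = 0.548). Ntrk2 differed by 0.29 in MMC, 0.04 in LMC and -0.20 in raphe (adjusted p = 0.665, 0.988 and 0.981). Among the neurotrophin genes, Sort1, which encodes the neurotrophin-binding receptor sortilin, was lower in SMA MMC, with a difference of -0.64 (SE 0.15, adjusted p = 0.0322), and was the 1 of 7 tested that passed there. It was named after its value was seen.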

How the data were processed

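The files hold 24 arrays. Per the file headers, the deposited signal intensity of each probe had its background subtracted by the authors, and a deposited detection p-value stands beside it. Per the submitters' processing notes GenomeStudio was used, with no version given. A deposited matrix of log2 values, normalized by the authors in a way that the sources used here do not name, ranks probes within each array as the signals do. Its column medians lie between 7.54 and 7.57, and it served as an alternative. The platform annotation gave 34885 of 45281 probes 1 symbol, 18 several and 10378 none.

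Groups came from the sample titles. Background was corrected by normexp, whose control mean and spread were inferred through detection p-values. An offset of 16 and quantile normalization followed (limma 3.58.1, R 4.3.3). Tested genes were those above background (detection p under 0.05) on each of the 3 arrays in 1 or more of the groups compared, and 11199 genes met this in at least 1 group. limma fitted 1 mean per group (16 residual degrees of freedom) with a mean-variance trend. Benjamini-Hochberg adjustment ran over all genes tested, two-sided, with a threshold of 0.05. The script was tested on simulated data.

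All 7 members are named with every probe. From each list the 3 largest rises and 2 largest falls that passed in WT DRG, and the 2 genes of smallest p in SMA against WT DRG, could be named, and for each member the 3 genes of highest r. The members and lists were chosen with earlier results of these data known.

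Same-numbered SMA and WT arrays of a tissue had deviations that correlated at -0.09 to 0.31, so the numbers were not taken as pairs. The alternatives were the deposited normalized values, median scaling, an offset of 50, no detection filter, a detection p under 0.01, no trend, array weights, only the arrays compared, a replicate block, the mean of the detected probes and leaving out each array.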

Additional observations from a re-analysis of the deposited data

How the results depend on the processing

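The calls on tissues held in part. That of Ntrk2 in WT DRG against raphe was lost in 6 of 16 alternatives. In the same comparison Pou4f1 passed in 4 of 16 and turned in 1, and Etv1 passed in 3. No alternative used the NM_008746 probe of Ntrk3 alone, which gave another order of the tissues. Avil, Prrxl1 and Ntrk3 kept their direction and their call in WT DRG against each central tissue under all 16 alternatives run for each comparison, and Etv1 and Pou4f1 did so against MMC and LMC. Against the mean of the central tissues these 5 kept both under all 22. Where the detection filter was used, Avil and Prrxl1 entered all these tests only through DRG. Pou4f1 did so against MMC and LMC. Their direction there was therefore set by the filter. The sizes of the 5 genes' differences moved by more than 1.5 times, however. In WT DRG against the mean, the deposited normalized values gave 0.55 for Prrxl1 in place of 2.36, 3.40 for Avil in place of 6.72 and 2.15 for Pou4f1 in place of 4.34, and the mean of the detected probes gave -0.99 for Ntrk3 in place of -2.53 and 1.53 for Etv1 in place of 2.87. Against raphe the mean of the detected probes gave -0.80 for Ntrk3 in place of -2.88 (adjusted p = 0.0477). None of the 6 genes tested passed between genotypes in DRG under any of the 16 alternatives run there. Where a value below moved, the cause was not tested, except that leaving arrays out lowers the number of samples.

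With the deposited normalized values, SMA minus WT in LMC was -0.0056 for Ntrk2 and -0.026 for Ntrk3, and in raphe 37 genes passed, 1 of them a member (Etv1). Median scaling turned Ntrk3, to -0.036 in DRG and -0.0035 in LMC. An offset of 50 gave 4 genes in LMC, and no detection filter gave 50 in MMC. Array weights passed 4818 genes in WT DRG against the mean, 3411 against MMC, 5215 against LMC, 3700 against raphe and 4793 in SMA DRG against the mean. They passed 43 genes between genotypes in DRG, 36 in MMC, 4 in LMC, 62 in raphe and 9 for the difference of genotype effects, and turned Ntrk3 (-0.17), Pou4f1 (0.16) and Avil (0.043) in DRG, Ntrk2 in MMC (-0.11), and Ntrk2 (-0.016) and Ntrk3 (-0.025) in LMC. With only the arrays compared, 1269 genes passed in WT DRG against MMC, and 5 passed in MMC, 1 in LMC and 10 in raphe between genotypes. The mean of the detected probes turned Pou4f1 in WT DRG against raphe (-0.28), Ntrk2 (0.094) and Ntrk3 (-0.24) between genotypes in DRG, Ntrk2 in MMC (-0.020), Ntrk2 (-0.35) and Ntrk3 (-0.14) in LMC, and Ntrk2 (0.017) and Ntrk3 (0.10) in raphe.

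With the replicate number as a block, 50 genes passed between genotypes in MMC, 1 in LMC and 8 in raphe. Arrays correlated best with their own number for 3 of 3 in LMC, 2 of 3 in DRG and 1 of 3 in MMC and in raphe. The block changed the call of 1 member, Etv1 in the mean of the central tissues.

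That mean passed 11 genes with no trend, 38 with array weights, 6 with only the arrays compared and 10 with the block, and 0 members with median scaling, no detection filter, no trend, only the arrays compared, the block or the mean of the detected probes.

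Leaving out 1 array at a time gave 94 to 277 genes between genotypes in MMC, 2 to 25 in LMC, 1 to 3 in DRG and 7 to 37 in raphe, 0 to 1 for the difference of genotype effects, and 6 to 31 genes with 0 to 1 members for the mean of the central tissues. Differences that changed sign in this way lay between -0.73 and 0.023 for Ntrk2 in WT DRG against MMC. Between genotypes in DRG they lay between -0.19 and 0.10 for Ntrk2, -0.19 and 0.46 for Ntrk3, -0.19 and 0.16 for Pou4f1, -0.70 and 0.0086 for Prrxl1, and -0.24 and 0.026 for Avil. They lay between -0.10 and 0.65 for Ntrk2 in MMC, -0.053 and 0.11 for Ntrk2 and -0.037 and 0.10 for Ntrk3 in LMC, and -0.37 and 0.0062 for Ntrk3 in raphe.

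Signal over background limits Runx3, which no array measured, Prrxl1 and Avil outside DRG, Pou4f1 in MMC and LMC and Etv1 in SMA MMC, where the values have no order among themselves.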

Other observations

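The differences of Etv1 between genotypes in MMC, LMC and raphe had the same sign, and their mean was tested after these values were seen. The test therefore restates what prompted it and adds no independent support, and none of the 3 tissues passed alone. For Etv1, which encodes an ETS factor, the mean log2 difference of SMA minus WT was -1.31 (SE 0.27, 95% interval -1.88 to -0.75, limma adjusted p = 0.0494). It was the last of the 17 genes of 10540 that passed (0.161%), 12 higher and 5 lower in SMA mice. The call was lost in 20 of 27 alternatives, over which the difference ranged from -1.47 to -0.60 and the adjusted p from 0.017 to 0.2. It held without SMA MMC replicate 3, WT MMC replicate 2 or 3 or SMA LMC replicate 3, and was lost without any other single array. The other Etv1 probes gave -0.46 and -0.58 (adjusted p = 0.568 and 0.367).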
